A study of Caenorhabditis elegans with 25 samples.

Results

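To follow transcripts as male germ cells mature into sperm without the PRC2 histone mark H3K27me3, RNA from mes-3 sperm was compared with RNA from mes-3 male germlines of Caenorhabditis elegans. The comparison used 6 of the 25 libraries of the series, which are those that the labels assign to mes-3 sperm (n = 3) and to mes-3 male germlines (n = 3). Both groups came from strain SS818, mes-3(bn35)/hT2-GFP, as homozygous mes-3 males that had inherited maternal MES-3 product but made none of their own (M+Z-). The males were XO and were grown at 20 °C. Loss of zygotic MES-3 removes H3K27me3 from their germ cells, as the study describes the model. Germline samples were distal gonad arms of young adult males, cut at the bend in late pachytene, so the later stages of spermatogenesis were outside them. Sperm were mature spermatids released by cutting adult males open and collected with a pipette. The study's control strain, CB1489 him-8(e1489), produces many XO males with intact H3K27me3 and gave 3 sperm and 4 male germline libraries. These were used for the comparison of the 2 genotypes, to define a gene class and in alternative fits. Male germlines and hermaphrodite oogenic germlines of the wild-type strain N2, both at 20 °C, set the gene classes and levels used below. An alternative fit over all 25 libraries also held oogenic germlines of fem-2 and of mes-3 fem-2 offspring (M+P- and M+P+), all at 15 °C.

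Spermatocytes transcribe the genes for sperm, pass through the meiotic divisions and shed much of their cytoplasm, ribosomes included, into a residual body. The resulting spermatids are transcriptionally quiet, and so the RNA of sperm is RNA made earlier and carried along. Nematode sperm crawl on filaments of major sperm protein in place of actin. PRC2, of which MES-3 is a subunit, deposits H3K27me3 on repressed genes, and the X chromosome is repressed in the C. elegans male germline.

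Total gene counts were 7500138 to 9991288 in mes-3 male germlines and 1561329 to 2489066 in mes-3 sperm, and germlines were thus measured more deeply than sperm. Values per library are given in CPM, which are gene counts scaled to a common total per library, and 3 counts corresponded to 0.3 to 0.4 CPM in germlines and to 1.21 to 1.92 CPM in sperm. These floors cover counting error only. Fold changes were fitted with TMM factors, a scaling by the bulk of the genes, which were 1.06 to 1.1 in germlines and 0.909 to 0.947 in sperm. A difference that is small in CPM can therefore be absent from the fitted fold change, and scaling by total counts instead shifted the median of all genes by -0.21 on the log2 scale. Markers of the labelled tissues were checked next. Of 10 markers of the meiotic germline, 9 were lower in sperm and none was higher, and their summed level was 867 to 958 CPM in sperm and 1660 to 1917 CPM in germlines. Without mes-3 male germline replicate 3, 5 of them were lower. Of 6 sperm markers, 4 were higher in sperm and none was lower. Somatic markers were also present in the sperm libraries. The 8 body muscle markers summed to 2691 to 4819 CPM in sperm and to 58.3 to 119.4 CPM in germlines, and all 8 were higher in sperm. The 8 intestine markers summed to 1014 to 1194 CPM in sperm and 14.6 to 41.5 CPM in germlines, and 7 were higher. Of 3 hypodermis markers tested 2 were higher, of 4 neuron markers 2 were higher, and of 2 tested markers of the male somatic gonad none was called. In him-8 sperm the body muscle markers summed to 2336 to 5355 CPM. The mes-3 transcript itself was at 40.1, 30.1 and 18.9 CPM in sperm and 26.9, 33.1 and 40.2 CPM in germlines (log2 fold change 0.02 ± 0.34, edgeR adjusted p = 0.965), and it was also counted in him-8 libraries. The labels do not say which of the samples, if any, came from 1 culture, so p-values measure the spread between these samples only. The lesion of the bn35 allele was not given in the sources used here, so this level does not check the labels.

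Most transcripts of the mes-3 male germline were also counted in mes-3 sperm, and the sperm libraries held in addition a large set of transcripts that were near 0 in the germline. Of 10018 genes tested, 1900 were higher in sperm (19%) and 1041 were lower (10.4%) at an adjusted p under 0.05 in edgeR. The sizes differed between the directions. Genes called higher showed a median of 3.697 on the log2 scale, and 1491 of them were at least 2-fold and 1135 at least 8-fold higher. Genes called lower showed a median of -0.82, and 325 of them were at least 2-fold and 43 at least 8-fold lower. With total counts in place of TMM factors, 1645 genes were higher and 1923 lower, so that the higher calls were 46.1% of all calls in place of 64.6%. The lower count fell to 577, 532 and 427 without mes-3 male germline replicate 1, 2 and 3 respectively, and it was 559 when him-8 sperm were added to the fit.

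By level per transcript length (RPKM), 5865 genes exceeded 15 RPKM in mes-3 male germlines and 5550 in mes-3 sperm, and 4930 did so in both. These were 84.1% of the germline genes and 88.8% of the sperm genes. No gene over 15 RPKM in germlines was under 1 RPKM in sperm, whereas 194 genes over 15 RPKM in sperm were under 1 RPKM in germlines. Strong losses were restricted to genes of low level. All 33 genes that were at least 16-fold lower had a germline mean between 2.3 and 12 CPM, near what the depth of the sperm libraries can measure. An example, chosen after its values were seen, is unc-63, a subunit of a nicotinic acetylcholine receptor, with no count in sperm and 12.8, 6.67 and 10.5 CPM in germlines, at least 6.36-fold lower in sperm against a floor of 3 counts per library. In bulk samples, fewer cells of a type and less RNA per cell cannot be told apart.

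**Figure D1:**
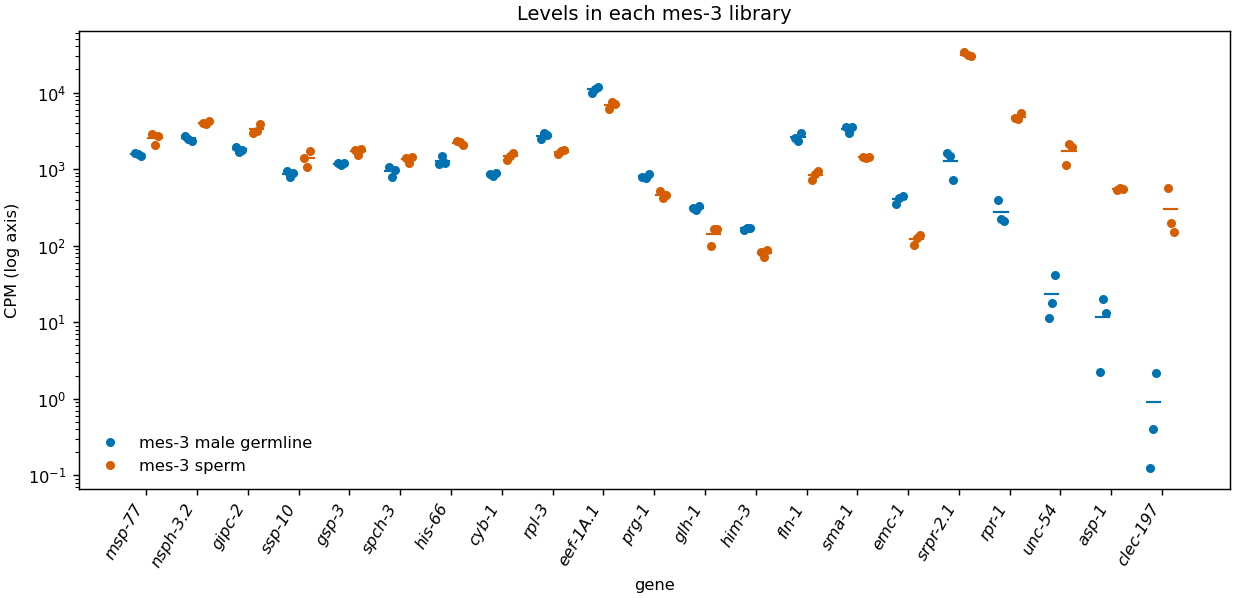
CPM on a log axis of 21 genes in each of the 3 mes-3 male germline libraries (blue) and the 3 mes-3 sperm libraries (orange), with the mean of each group as a line. Sperm and germline points lie close together for genes of sperm function and of the meiotic germline, whereas srpr-2.1, rpr-1, unc-54, asp-1 and clec-197 are separated by 1 or more steps of 10 on the axis.

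Genes for sperm structure were among the most highly expressed in both groups and rose modestly in sperm. RPKM could be ranked only for the 18985 genes with a recovered transcript length. Among these, the 10 highest in mes-3 sperm were 6 msp genes (msp-77, msp-36, msp-51, msp-31, msp-40 and msp-45), the histone H2B genes his-66 and his-48, and Y59E9AR.1 and Y59E9AR.7. Their mean levels ran from 5949.9 RPKM for Y59E9AR.1 to 4767 RPKM for msp-45. All 10 were higher in sperm, with log2 fold changes from 0.83 to 1.11. Reads of these near-identical genes may be divided among copies, and the counting of such reads is not given in the sources used here, so levels of single copies are uncertain.

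Of the 35 msp genes 33 could be tested, and 31 were higher in sperm and none lower, beside 19% and 10.4% of all genes. Their median log2 fold change was 0.98, beside -0.06 for all genes. The most counted, msp-77, was at 2894, 2085 and 2715 CPM in sperm and 1634, 1579.6 and 1501 CPM in germlines (log2 fold change 0.91 ± 0.13, edgeR adjusted p = 0.000576). Each sperm library was above each germline library. Together the msp genes made up 4.89% ± 0.694 (SD, n = 3) of the counts in sperm and 2.87% ± 0.218 (n = 3) in germlines. The groups did not overlap, and the exact permutation test gave p = 0.1 (two-sided), the smallest that 3 against 3 libraries allow. This share and those of X-linked genes and of the 10 most counted genes formed a family of 3, in which the adjusted p was 0.1 each.

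Other small proteins of sperm followed. Of 20 tested genes of the ssp (sperm-specific family, class P) and nspd (nematode-specific peptide, group D) families, 15 were higher and none lower. These counts stand beside 19% higher and 10.4% lower over all genes. Their median was 1.00. Here ssp-10 was at 1381, 1079 and 1711 CPM in sperm and 930.5, 793 and 891 CPM in germlines (log2 fold change 0.88 ± 0.17, edgeR adjusted p = 0.00278), without overlap. The most counted protein-coding gene that rose, nsph-3.2 of the nematode-specific peptide group H, was chosen after its values were seen and was at 3961, 3886 and 4271 CPM in sperm and 2726, 2504 and 2361 CPM in germlines (log2 fold change 0.88 ± 0.11, edgeR adjusted p = 0.000223). The genes gipc-1 and gipc-2, which encode PDZ-domain proteins of the GIPC family and were also chosen afterwards, had log2 fold changes of 0.93 and 1.09.

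The enzymes of sperm maturation rose less. Among 11 tested phosphatase and kinase genes of sperm, 8 were higher and none lower, beside 19% and 10.4% of all genes. Their median was 0.52. The PP1 phosphatase gene gsp-3, which acts in sperm meiosis and motility, was at 1761, 1506 and 1824 CPM in sperm and 1214, 1114 and 1219 CPM in germlines (log2 fold change 0.73 ± 0.12, edgeR adjusted p = 0.00114). Its near-identical partner gsp-4 had a log2 fold change of 0.70, and the casein-kinase-like genes ttbk-8.1 and ttbk-8.2 had 0.58 and 0.62. Without mes-3 male germline replicate 2 or 3, 5 of the 11 were higher, and with total counts 4 were. The 3 spch genes, for basic proteins of sperm chromatin, were all higher, led by spch-3 at 1411, 1198 and 1452 CPM in sperm and 1073, 777 and 978 CPM in germlines (log2 fold change 0.73 ± 0.15, edgeR adjusted p = 0.00405). In each of these genes the sperm libraries lay above the germline libraries. Of all 10018 genes tested, 5439 showed no overlap in either direction.

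Genes for spermatid activation and fertilization did not move as a group. Of 28 tested, 3 were higher (10.7%) and 1 was lower (3.57%). Both shares lay below those over all genes, 19% higher and 10.4% lower. The list median of -0.14 turned positive under the length correction. It did so too in a fit restricted to genes of at least 5 RPKM in male germlines of N2, the wild-type strain. The myosin VI gene spe-15 was at 1931, 1890.1 and 2138 CPM in sperm and 1846, 1571 and 1732 CPM in germlines (log2 fold change 0.42 ± 0.12, edgeR adjusted p = 0.0219). The other higher members were spe-6, a casein-kinase-like gene that holds back activation (log2 fold change 0.43), and spe-8, a tyrosine kinase gene of the activation pathway (0.63). The lower member was zipt-7.1, a zinc transporter gene of sperm activation, at 51.7, 67.3 and 45 CPM in sperm and 109, 157 and 121 CPM in germlines (log2 fold change -1.04 ± 0.21, edgeR adjusted p = 0.00444). The dysferlin relative fer-1, needed for fusion of the membranous organelles, was at 694, 659 and 639 CPM in sperm and 930.4, 825 and 882 CPM in germlines, which fell short of the threshold (log2 fold change -0.20 ± 0.11, edgeR adjusted p = 0.201), as did the calcium channel gene spe-41 (log2 fold change -0.15, edgeR adjusted p = 0.403). None was called higher without mes-3 male germline replicate 2 or 3, and 1 was higher without mes-3 sperm replicate 2. The lower count was 3 without that sperm library and 4 without mes-3 sperm replicate 3. At total counts none was higher and 4 were lower.

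Some genes of cell division and of the cytoskeleton changed. Of 33 tested genes of the cell cycle and the meiotic divisions, 3 were higher and 4 lower, beside 19% higher and 10.4% lower over all genes. With total counts 1 was higher and 7 lower, and 1 was higher and 1 lower without mes-3 male germline replicate 2 or 3. Without mes-3 sperm replicate 1, 1 was higher and 5 were lower, and without sperm replicate 3, 5 were higher and 3 lower. The cyclin B gene cyb-1 was at 1331, 1503 and 1636 CPM in sperm and 867, 803 and 881 CPM in germlines (log2 fold change 1.018 ± 0.12, edgeR adjusted p = 0.000162), with the groups well apart. The Aurora B kinase gene air-2 and the securin gene ify-1 were the other higher members, at 0.64 and 0.40. The lower members were apc-2, cdk-2, cdc-25.1 and cye-1, which act in the anaphase-promoting complex or at the entry into S phase and division, at -1.04, -0.93, -0.87 and -0.73. Of 12 tubulin genes tested, 6 were higher and none lower, among them the alpha tubulin gene tba-2 at 2162, 2145 and 2294 CPM in sperm and 1703, 1787 and 1889.8 CPM in germlines (log2 fold change 0.50 ± 0.11, edgeR adjusted p = 0.00493). The members with the largest changes were mec-12, tba-7 and tba-4, whose germline levels were low (4.06, 3.92 and 3.06). Of 14 genes for actin and myosin of cell division, 7 were higher and 1 was lower. With total counts 4 were higher and 4 lower, and without mes-3 sperm replicate 3, 4 were higher. The lower one was ani-1, for the ring scaffold anillin, at 341, 366 and 384 CPM in sperm and 697, 711 and 746 CPM in germlines (log2 fold change -0.77 ± 0.11, edgeR adjusted p = 0.000606). Of the 7 higher genes, nmy-1, pfn-2 and act-4 lie on the X chromosome, and act-5 is an actin of the intestine and one of its markers.

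Core histone transcripts were retained and rose in part. Of 56 tested genes for replication-dependent core histones, 22 were higher and none lower, beside 19% and 10.4% of all genes. Their median was 0.81, and their summed share was 2.07% in sperm and 1.41% in germlines. The H2B gene his-66 was at 2296, 2284 and 2044 CPM in sperm and 1168, 1492 and 1209 CPM in germlines (log2 fold change 0.99 ± 0.12, edgeR adjusted p = 0.000144). With a correction for transcript length 13 were higher. Linker histones showed no common direction, and their median of 1.204 turned negative in some alternatives. The X-linked his-24 was higher at low level (log2 fold change 2.16 ± 0.73, edgeR adjusted p = 0.0452), a call that was lost when any 1 library was left out, and hil-4 was at 121, 131 and 104 CPM in sperm and 171, 171 and 166 CPM in germlines, which did not pass (log2 fold change -0.31 ± 0.15, edgeR adjusted p = 0.136). None of 5 tested genes for H3.3 and centromeric H3 was called, and his-72, an H3.3 gene, was at 64.3, 41 and 46.6 CPM in sperm and 57.5, 77.3 and 70.6 CPM in germlines (log2 fold change -0.23 ± 0.24, edgeR adjusted p = 0.514).

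**Figure D2:**
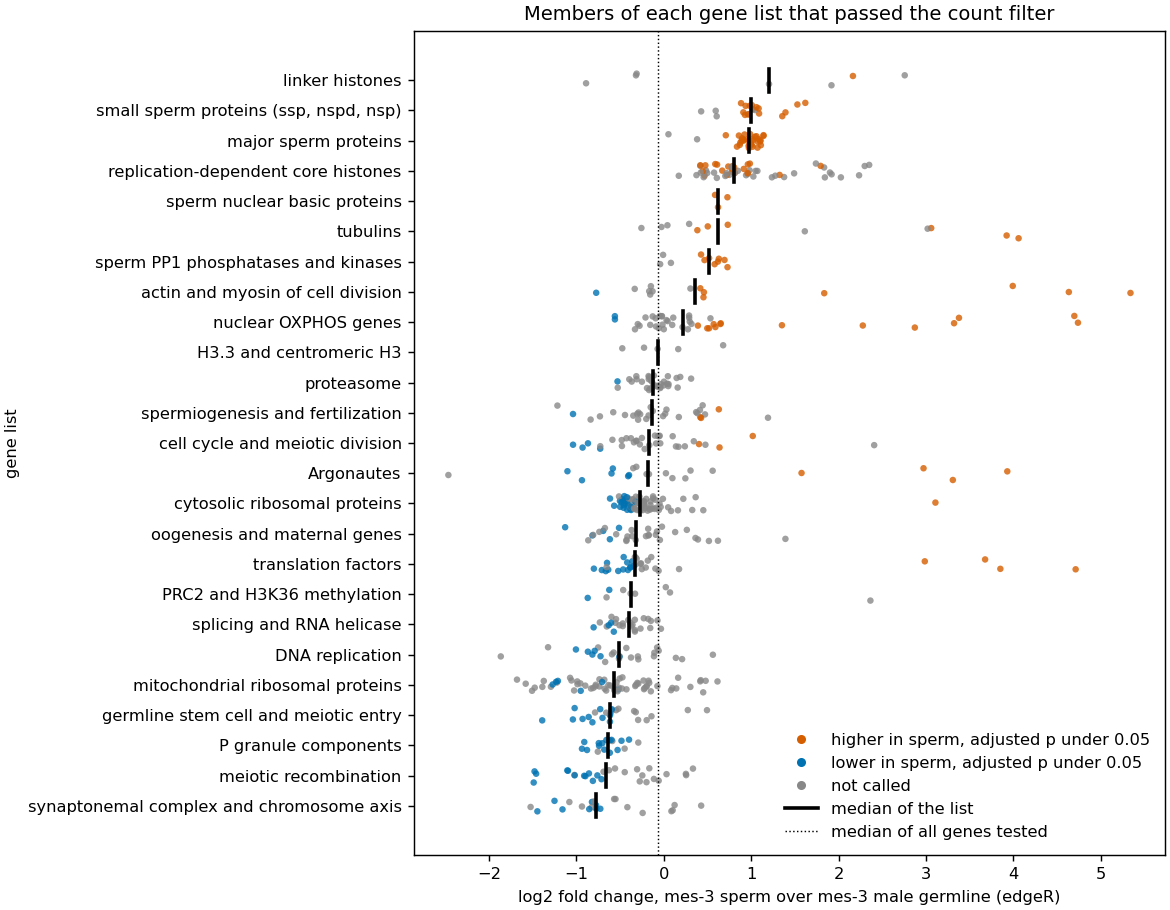
Log2 fold change of mes-3 sperm over mes-3 male germline for the tested members of 25 gene lists, ordered by list median (black bar), with called genes in orange (higher) and blue (lower) and the median of all genes as a dotted line at -0.06. Sperm proteins and histones lie to the right, meiotic and P granule genes to the left, and single members at far right stand apart from their lists.

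Transcripts of early germline stages were lower in sperm by modest factors. Of 22 tested genes for the synaptonemal complex and the chromosome axis, 9 were lower and none higher, with a median of -0.77. Over all genes tested 10.4% were lower and 19% higher. The axis gene htp-1 was at 72.2, 48.7 and 45.4 CPM in sperm and 146, 135 and 173 CPM in germlines (log2 fold change -1.25 ± 0.21, edgeR adjusted p = 0.00149), and its relative him-3 at 82.8, 70.5 and 87.2 CPM in sperm and 161, 171 and 171 CPM in germlines (log2 fold change -0.85 ± 0.16, edgeR adjusted p = 0.00255). Further lower members were syp-1 and syp-4 of the central region (-0.77 and -0.77) and the meiotic cohesin genes rec-8 and coh-4 (-0.72 and -1.44). In all 6 the sperm and germline libraries did not overlap, as in 15 of the 22 list members and 5439 of the 10018 genes tested. Without mes-3 male germline replicate 2 or 3, 4 and 3 of the 22 were lower.

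Of 28 genes for meiotic recombination 12 were lower and none higher, with a median of -0.66. For this list and the next, the shares over all genes were 10.4% lower and 19% higher. The crossover gene rmh-1 was at 30.1, 41 and 23.7 CPM in sperm and 101, 102 and 100.2 CPM in germlines (log2 fold change -1.49 ± 0.24, edgeR adjusted p = 0.000987), and the helicase gene rtel-1 at 23.7, 17.9 and 41.4 CPM in sperm and 91.6, 84.9 and 92.5 CPM in germlines (log2 fold change -1.46 ± 0.30, edgeR adjusted p = 0.00452). The break-processing genes rad-50 and mre-11 had log2 fold changes of -0.85 and -0.81, and the crossover genes msh-5 and him-14 had -1.02 and -1.09. Other members did not pass, among them the single-strand binding genes rpa-1 (-0.27, adjusted p = 0.171) and rpa-2 (0.26, adjusted p = 0.217), both in edgeR. Among 25 DNA replication genes 6 were lower and none higher, including the polymerase genes pola-1 at 191, 246 and 178 CPM in sperm and 393, 425 and 429 CPM in germlines (log2 fold change -0.82 ± 0.14, edgeR adjusted p = 0.00161) and pole-1 (-0.87). Without mes-3 male germline replicate 3, 7 recombination and 2 replication genes were lower, and without replicate 2, 2 replication genes were.

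Genes of the germline stem cell pool and of meiotic entry fell in the same range. Of 24 tested 12 were lower and none higher, beside 10.4% lower and 19% higher over all genes. Their median was -0.61, and 7 were lower without mes-3 male germline replicate 3. The Notch receptor gene glp-1, which maintains the stem cells, was at 93.3, 75.6 and 65.1 CPM in sperm and 151, 182 and 142 CPM in germlines (log2 fold change -0.82 ± 0.18, edgeR adjusted p = 0.00627). The RNA-binding protein genes puf-8, gld-3, nos-3 and fog-1 were at -1.39, -1.04, -0.86 and -0.70 on the log2 scale. The meiotic entry gene gld-1 was at 109, 138 and 127 CPM in sperm and 168, 296 and 199 CPM in germlines, with a weaker call (log2 fold change -0.61 ± 0.20, edgeR adjusted p = 0.0422) that was lost under 12 of 18 alternatives.

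P granules are RNA-protein bodies of germ cells, and 14 of 18 tested genes for their components were lower in sperm while none was higher, with a median of -0.64. Over all genes tested 10.4% were lower. For all 18 the sperm libraries lay below the germline libraries in CPM, which carries no TMM factor. Of the 10018 genes tested, 5439 showed no overlap in CPM in either direction. The helicase gene glh-1 was at 97.5, 165 and 164 CPM in sperm and 309, 292 and 325 CPM in germlines (log2 fold change -0.91 ± 0.20, edgeR adjusted p = 0.00567), and pgl-1, a scaffold protein gene, at 179.8, 186 and 174 CPM in sperm and 284, 369 and 362 CPM in germlines (log2 fold change -0.70 ± 0.14, edgeR adjusted p = 0.00313). The Piwi gene prg-1 was at 511, 414 and 462 CPM in sperm and 795, 761 and 865 CPM in germlines (log2 fold change -0.60 ± 0.12, edgeR adjusted p = 0.00422), and znfx-1, a helicase gene of inherited silencing, at -0.68 on the log2 scale. Without mes-3 male germline replicate 3, 9 of the 18 were lower.

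Argonautes bind small RNAs. Of 20 tested, 6 were lower (ppw-2, wago-4, prg-1, wago-1, hrde-1 and csr-1) and 4 were higher (alg-1, sago-1, nrde-3 and vsra-1), beside 10.4% lower and 19% higher over all genes, so that the share of higher members lay near that of all genes. The germline Argonaute gene wago-1 was at 689, 745 and 604 CPM in sperm and 1139.8, 1151 and 1225 CPM in germlines (log2 fold change -0.58 ± 0.11, edgeR adjusted p = 0.00325), and csr-1, which targets expressed germline genes, at 620.0, 661 and 594 CPM in sperm and 934, 915 and 998 CPM in germlines (log2 fold change -0.40 ± 0.11, edgeR adjusted p = 0.0186). The Argonaute genes of spermatogenesis, alg-3 and alg-4, were retained at high level, with 1237, 1246 and 1174 CPM in sperm and 1263, 1083 and 1207 CPM in germlines for alg-3 (log2 fold change 0.25 ± 0.11, edgeR adjusted p = 0.121), and overlapped between the groups. The microRNA Argonaute gene alg-1, on the X chromosome, was at 43.8, 42.3 and 30.9 CPM in sperm and 4.38, 4.27 and 0.3 CPM in germlines (log2 fold change 3.93 ± 0.71, edgeR adjusted p = 0.00211). The higher members were thus of low level in the germline, below 25 CPM in every library.

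Among 9 tested genes of PRC2 and of H3K36 methylation, 2 were lower (met-1 and set-2) and none was higher, beside 10.4% and 19% of all genes. The H3K36 methyltransferase gene met-1 was at 131, 91.6 and 83.6 CPM in sperm and 204, 204 and 235.3 CPM in germlines (log2 fold change -0.87 ± 0.18, edgeR adjusted p = 0.00465), and set-2, for an H3K4 methyltransferase that is on the same list, had a log2 fold change of -0.62. The PRC2 gene mes-2 was at 111, 92.9 and 99.2 CPM in sperm and 138, 167 and 151 CPM in germlines (log2 fold change -0.38 ± 0.15, edgeR adjusted p = 0.0894), and mes-4, for the germline H3K36 methyltransferase, at 124, 85.2 and 79.5 CPM in sperm and 147, 150.4 and 161 CPM in germlines (log2 fold change -0.46 ± 0.19, edgeR adjusted p = 0.0842), and neither passed. Among 31 genes of oogenesis and maternal supply 5 were lower and none higher, among 26 splicing genes 4 were lower and none higher, and among 33 proteasome genes 1, pas-6, was lower, beside 10.4% of all genes. Each of these 3 counts moved by more than 1.5 times without mes-3 male germline replicate 2 or 3, to 2 for oogenesis, to 2 and 1 for splicing and to 0 for the proteasome. The oogenesis count was also 2 without mes-3 male germline replicate 1 and 3 without mes-3 sperm replicate 3, and the proteasome count was 3 when mes-3 sperm replicate 2 was left out. The splicing factor gene prp-8 was at 1217, 1398 and 1043 CPM in sperm and 2045, 2025 and 2190.1 CPM in germlines (log2 fold change -0.57 ± 0.12, edgeR adjusted p = 0.00542).

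Transcripts for translation were retained at high level with a small decrease, and the number of lower calls depended on the scaling. The elongation factor gene eef-1A.1, the most counted gene of the germlines, was at 6079, 7572 and 7023 CPM in sperm and 9942, 11135 and 11869 CPM in germlines (log2 fold change -0.46 ± 0.12, edgeR adjusted p = 0.0176), and eef-2 at 3824, 4552 and 4269 CPM in sperm and 5978, 6330.3 and 6696 CPM in germlines (log2 fold change -0.38 ± 0.11, edgeR adjusted p = 0.0288). Of 32 translation factor genes 14 were lower and 4 higher, beside 10.4% and 19% of all genes. Among 73 tested genes for cytosolic ribosomal proteins 19 were lower and 1 was higher, with a median of -0.27, and their summed share of counts was 3.53% in sperm and 5.02% in germlines. The ribosomal gene rpl-3 was at 1559, 1741 and 1763 CPM in sperm and 2469, 2962 and 2755 CPM in germlines (log2 fold change -0.48 ± 0.11, edgeR adjusted p = 0.00903). At total counts 53 of the 73 were lower. With another scaling (RLE factors) 10 ribosomal protein genes and 7 translation factor genes were lower. In the fit restricted to genes of at least 5 RPKM in N2 male germlines, 2 ribosomal protein genes were lower and 2 higher, with a median of -0.10. That fit gave 2 translation factor genes as lower and 3 as higher. In the main fit, the lower calls of ribosomal protein genes were 10, 7 and 6 without mes-3 male germline replicate 1, 2 and 3. They were 12 and 30 after leaving out sperm replicates 1 and 3. The translation factor count fell to 6, 5 and 3 without each germline library in turn. Of 64 mitochondrial ribosomal protein genes 6 were lower and none higher, with a median of -0.57. This share of lower calls lay near the 10.4% of all genes. Leaving out germline replicates 1, 2 and 3 gave 2, 2 and 3, and leaving out sperm replicate 3 gave 15.

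Several of the higher members of these lists are relatives of a family member that was lower or was not called. The poly(A)-binding protein gene pab-2, on the X chromosome, was at 229, 286 and 264 CPM in sperm and 12.6, 8.40 and 13 CPM in germlines (log2 fold change 4.71 ± 0.22, edgeR adjusted p = 3.01e-07), whereas pab-1 was at 2242, 2634 and 2188 CPM in sperm and 3445, 3305 and 3583 CPM in germlines (log2 fold change -0.34 ± 0.11, edgeR adjusted p = 0.0424), a call that was lost under 12 of 18 alternatives. The X-linked elongation factor gene eef-1A.2 was at 267, 245 and 213 CPM in sperm and 33.5, 17.1 and 14.8 CPM in germlines (log2 fold change 3.68 ± 0.29, edgeR adjusted p = 7.78e-06), opposite to eef-1A.1. For the ribosomal protein genes rpl-11.2 and rpl-11.1, of which rpl-11.2 is X-linked, the log2 fold changes were 3.11 and -0.61. Even after these rises the X-linked copies stayed below their relatives in sperm. The same held in oxidative phosphorylation, where 14 of 41 nuclear genes were higher and 2 lower, beside 19% and 10.4% of all genes. Their median was 0.22. With total counts 8 were higher and 7 lower, with a median of 0.0090. The ATP synthase gene asb-2, on X, was at 65.9, 90.3 and 140.2 CPM in sperm and 4.88, 5.33 and 2.80 CPM in germlines (log2 fold change 4.74 ± 0.38, edgeR adjusted p = 8.44e-06), and asb-1 at 353, 374 and 299 CPM in sperm and 525, 484 and 475 CPM in germlines (log2 fold change -0.33 ± 0.12, edgeR adjusted p = 0.0653). The X-linked sdha-1, of complex II, had 2.28 and its relative sdha-2 had -0.56. Of the 14 higher genes 6 lie on X, and the higher count was 9 and 7 without germline replicates 2 and 3 and 8 without sperm replicate 3. The main ATP synthase genes atp-1 and atp-2 were at -0.02 and -0.04 and were not called. Body muscle and intestine markers, given above, were higher in the same libraries, and their part in these values was not tested.

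The largest decreases among genes of substantial level were modest. Among protein-coding genes without overlap between the groups and with a mean of at least 50 CPM in germlines, the greatest were in R05G9R.1, at 5.27, 20.5 and 25.7 CPM in sperm and 76.5, 72.3 and 77.7 CPM in germlines (log2 fold change -1.91 ± 0.43, edgeR adjusted p = 0.00696), and pigb-1, for a mannosyltransferase of GPI anchors, at 18.5, 19.2 and 13.3 CPM in sperm and 72.7, 76.0 and 65.9 CPM in germlines (log2 fold change -1.88 ± 0.26, edgeR adjusted p = 0.000415). The remaining 8 were algn-8, aat-9, mct-5, emc-1, ZK686.3, rmh-1, rtel-1 and coh-4, with log2 fold changes of -1.82 to -1.44. In this group algn-8 encodes a glucosyltransferase of N-glycan assembly, aat-9 and mct-5 encode transporters of amino acids and monocarboxylates, and emc-1 a subunit of the endoplasmic reticulum membrane complex. For emc-1 the values were 101, 125 and 137 CPM in sperm and 349, 419.6 and 449 CPM in germlines (log2 fold change -1.54 ± 0.16, edgeR adjusted p = 6.22e-05). Among the most counted germline genes, chosen after their values were seen, the filamin gene fln-1 and the spectrin gene sma-1 fell most. The former was at 713, 854 and 950.2 CPM in sperm and 2555, 2349 and 2934 CPM in germlines (log2 fold change -1.43 ± 0.15, edgeR adjusted p = 5.17e-05) and the latter at 1424, 1397 and 1452 CPM in sperm and 3556, 2994 and 3542 CPM in germlines (log2 fold change -1.03 ± 0.12, edgeR adjusted p = 0.000107). The dynein heavy chain gene dhc-1 had a log2 fold change of -0.53.

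Among families picked by symbol after the data were seen, 12 of 26 nucleoporin genes (npp), 7 of 11 integrator genes (ints), 6 of 8 chaperonin genes (cct) and 7 of 8 nucleolar genes (nol) were lower and none was higher, beside 10.4% lower over all genes. Their medians were -0.57, -0.81, -0.58 and -0.91, beside -0.06 for all genes. Changes also differed with transcript length. In the eighth of genes with the shortest transcripts (median length 500.5 bases) the median log2 fold change was 0.32, and it was -0.25 in the seventh and -0.17 in the longest eighth. Among genes of at least 5 RPKM in N2 males the median was 0.27 in the shortest eighth and -0.41 in the longest. With a correction for transcript length 1935 genes were higher and 823 lower. The list medians then were 0.70 for msp genes and 0.62 for ssp and nspd genes.

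The largest increases came from genes that were at or near 0 in mes-3 male germlines. By the same rule these were clec-219, clec-137, clec-94, srlf-18, C49C3.11, F59B2.12, clec-95, tag-329, clec-197 and Y69H2.3. Of these, 5 encode proteins with C-type lectin domains (clec), a family linked to immune and secreted proteins in worms. The values of clec-219 were 143, 45.5 and 29.3 CPM in sperm with no count in germlines, at least 203-fold higher in sperm (edgeR adjusted p = 8.75e-05), and those of clec-137 were 98.1, 41.6 and 32.9 CPM in sperm, also with no count in germlines, at least 160.5-fold higher (edgeR adjusted p = 2.94e-05). With more counts, F59B2.12 was at 1531, 1013 and 479 CPM in sperm and 0.376, 0.267 and 2.50 CPM in germlines (log2 fold change 9.93 ± 0.61, edgeR adjusted p = 1.32e-06) and clec-197 at 564, 196.6 and 149 CPM in sperm and 0.125, 0.400 and 2.2 CPM in germlines (log2 fold change 8.41 ± 0.72, edgeR adjusted p = 1.31e-05). In clec-219, clec-137, tag-329 and clec-197, sperm replicate 1 was the highest by a wide margin, and all sperm libraries lay above all germline libraries. The clec-94 gene had 1 count in the 3 germlines together, and its count ratio after scaling to library totals was 2434 (95% counting interval 435 to 96289). C49C3.11, F59B2.12 and Y69H2.3 overlap genes of the other strand, and whether the counting used strand is not given in the sources used here.

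Transcripts of muscle, intestine and cuticle were higher in sperm by large factors. The myosin heavy chain gene unc-54 was at 1145, 2098 and 1934 CPM in sperm and 11.3, 17.7 and 41.7 CPM in germlines (log2 fold change 6.38 ± 0.46, edgeR adjusted p = 4.04e-06), and the paramyosin gene unc-15 at 476, 796 and 752 CPM in sperm and 3.38, 4.27 and 10.9 CPM in germlines (log2 fold change 6.93 ± 0.41, edgeR adjusted p = 9.25e-07). Among intestine markers the protease gene asp-1 was at 541, 573 and 545 CPM in sperm and 2.25, 19.9 and 13.2 CPM in germlines (log2 fold change 5.77 ± 0.50, edgeR adjusted p = 1.45e-05), while elt-2, the gene for the intestinal GATA factor, was at 14.2, 19.9 and 8.44 CPM in sperm and 0, 0 and 0.5 CPM in germlines (log2 fold change 6.28 ± 1.18, edgeR adjusted p = 0.00264). The cuticle collagen gene col-19 was at 148, 211 and 221 CPM in sperm and 1.38, 4.67 and 7.11 CPM in germlines (log2 fold change 5.64 ± 0.44, edgeR adjusted p = 6.15e-06). In each of the 5 named genes the lowest sperm library exceeded the highest germline library. No overlap in either direction was seen in 5439 of the 10018 genes tested. These defining markers of somatic tissue were thus above 0 in sperm, and what they contribute to other genes was not tested.

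Transcripts of the X chromosome rose as a group, whereas those of the autosomes did not. Of 595 X-linked genes that passed the count filter, out of 5689 identifiers, 432 were higher in sperm and 3 lower, with a median of 4.12, whereas the medians of the 5 autosomes ran from -0.18 to 0.01. X-linked genes held 1.86%, 2.1% and 1.82% of the counts in the 3 sperm libraries and 0.238%, 0.212% and 0.229% in the 3 germline libraries. The means were 1.93% ± 0.153 (SD, n = 3) and 0.226% ± 0.0131 (n = 3), an 8.52-fold ratio without overlap, and the exact permutation test gave p = 0.1, the smallest possible here. Many of these genes pass the filter through the sperm libraries alone. The somatic markers given above were higher in the same libraries, with body muscle markers at 0.401% of counts in sperm and 0.00794% in germlines, and their part in the X-linked share was not tested. Of the 101 tested X-linked genes at 5 RPKM or more in N2 (wild-type) male germlines, 75 were higher and none lower. Their median was 4.71, beside -0.23 for autosomal genes of that level. The N2 male libraries also held body muscle markers, at 531 to 1607 CPM against 58.3 to 119.4 CPM in mes-3 germlines. This level thus does not separate germline from somatic transcripts, and the somatic part was not tested.

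**Figure D3:**
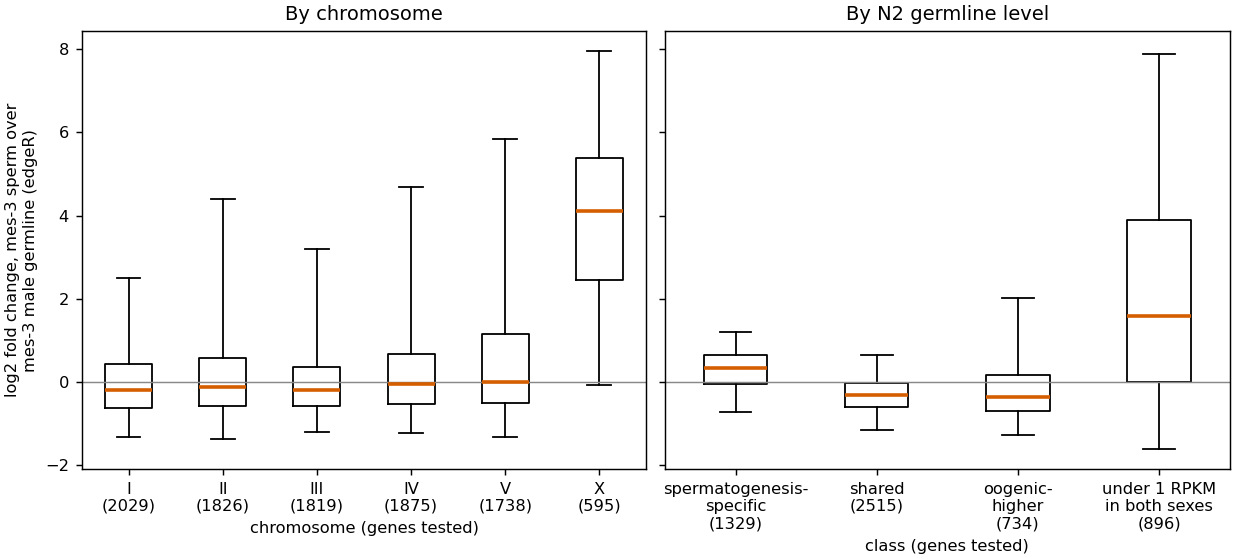
Log2 fold change of mes-3 sperm over mes-3 male germline for tested genes by chromosome (left) and by level in N2 germlines (right). Boxes span the quartiles with the median in orange, and whiskers run from the 5th to the 95th percentile. The X chromosome has a median of 4.12, against -0.18 to 0.01 for the autosomes.

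X-linked genes were chosen for description after their values were seen, as the most counted in sperm or in germlines. The long non-coding RNA tts-1 was at 902, 1073 and 701 CPM in sperm and 6.38, 10.8 and 14.6 CPM in germlines (log2 fold change 6.58 ± 0.29, edgeR adjusted p = 2.31e-07), and the actin gene act-4, one of the body muscle markers, at 533, 769 and 1002 CPM in sperm and 37.2, 27.9 and 42.1 CPM in germlines (log2 fold change 4.63 ± 0.26, edgeR adjusted p = 9.1e-07). The cathepsin-like gene asp-3 had a log2 fold change of 5.72, and mlc-2, for a muscle myosin light chain, had 6.59. Of those picked for their counts in germlines, the BiP chaperone gene hsp-3 was at 185, 213 and 162 CPM in sperm and 87.6, 142 and 80.8 CPM in germlines (log2 fold change 1.06 ± 0.21, edgeR adjusted p = 0.00364), and T08D2.3 fell, at 56.4, 64.0 and 51 CPM in sperm and 109.9, 98.9 and 97.3 CPM in germlines (log2 fold change -0.63 ± 0.19, edgeR adjusted p = 0.027). AC8.1 was at 48.5, 38.4 and 27.7 CPM in sperm and 59.6, 51.1 and 52.8 CPM in germlines and was not called (log2 fold change -0.31 ± 0.26, edgeR adjusted p = 0.403).

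Genes were next sorted by their level in other libraries. Over all genes tested, 19% were higher and 10.4% lower, and the class counts below stand beside these shares. Spermatogenesis-specific genes numbered 1342 and were defined by a mean above 15 RPKM in male germlines of N2 and of him-8 and below 1 RPKM in N2 oogenic germlines. Of the 1329 tested, 344 were higher and 33 lower, with a median of 0.33, and they held 28.1% of the counts in sperm and 22.4% in germlines. With total counts 228 were higher and 94 lower. Genes shared by both sexes, over 5 RPKM in both N2 groups within a factor of 2, included 2515 tested, of which 109 were higher and 489 lower, with a median of -0.31, and with total counts 71 were higher and 934 lower. Genes over 15 RPKM in N2 oogenic germlines and at least 4 times their N2 male level included 734 tested. Of these, 49 were higher (6.68%) and 78 lower (10.6%), with a median of -0.36. The share of lower calls thus lay near that of all genes. With total counts 43 were higher and 149 lower. Of 8685 genes under 1 RPKM in both N2 groups, 896 passed the count filter, many of them through the sperm libraries, so their calls (313 higher and 7 lower) are given as a description. The paternal-effect toxin gene peel-1, which is carried by sperm and was chosen after its values were seen, was at 42.2, 67.9 and 62.7 CPM in sperm and 80.2, 86.3 and 67.1 CPM in germlines (log2 fold change -0.22 ± 0.23, edgeR adjusted p = 0.51), with overlap between the groups.

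In mes-3, non-coding RNAs took up a larger part of the sperm libraries than of the germline libraries. The most counted genes in mes-3 sperm, seen in the data and not set by a rule, were srpr-2.1 and srpr-2.2, for the RNA of the signal recognition particle that targets proteins for secretion. The values of srpr-2.1 were 33791, 30566 and 29570.5 CPM in sperm and 1644, 1495 and 728 CPM in germlines (log2 fold change 4.81 ± 0.27, edgeR adjusted p = 9.1e-07). The RNase P RNA gene rpr-1, whose enzyme trims tRNA precursors, was at 4637, 4447 and 5373 CPM in sperm and 399, 221 and 210.4 CPM in germlines (log2 fold change 4.33 ± 0.25, edgeR adjusted p = 9.17e-07). Together the srpr genes and rpr-1 held 7.72% ± 0.414 (SD, n = 3) of the counts in sperm and 0.284% ± 0.111 (n = 3) in germlines, and sperm and germline libraries were far apart. The 10 most counted genes of each library held 10.3% ± 0.290 in sperm and 4.93% ± 0.209 in germlines, for which the exact permutation test gave p = 0.1. The copies of srpr are near-identical, so their split is uncertain. All 12 tested snRNA genes, for RNAs of the spliceosome and related particles, and 10 of 21 tested snoRNA genes, for RNAs that guide rRNA modification, were higher and none was lower. The shares over all genes were 19% higher and 10.4% lower. The snRNA genes summed to 269 to 563 CPM in sperm and 26.3 to 42.2 CPM in germlines. The same sum in him-8 was 208 to 422 CPM in sperm and 401 to 1156 CPM in germlines. In him-8 the median changes of these tested genes were negative, at -1.32 for snRNA and -2.89 for snoRNA genes. The rise was thus not shared by him-8. The snRNA sums of mes-3 and him-8 sperm overlapped, whereas mes-3 germlines lay below every other germline group of the series. In N2 male germlines snRNA genes summed to 208 to 444 CPM. The snoRNA genes summed to 238 to 537 CPM in mes-3 and 1132 to 1153 CPM in N2 male germlines. The srpr genes and rpr-1 held 3.28% to 3.32% in N2 male germlines. Why mes-3 germlines were low was not tested.

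The change from germline to sperm was then set against the same change in him-8 males. This difference of differences rests on him-8 male germlines that carry other run tags than the remaining libraries, so genotype and run cannot be told apart. One him-8 germline library, replicate 2, stood apart, with an X-linked share of 1.103% against 0.250% to 0.288% in the other 3 and body muscle markers at 3363 CPM against 216.9 to 281.6 CPM. Of 10129 genes tested, 218 had a more positive log2 change in mes-3 (2.15%) and 62 a more negative one (0.612%). These are called larger and smaller below, by sign and not by absolute size. Without him-8 male germline replicate 2 the counts were 275 and 155. The larger count was 135 and 144 without mes-3 male germline replicates 1 and 3. The smaller count was 13, 21 and 15 without mes-3 male germline replicates 1, 2 and 3, 35 and 30 when mes-3 sperm replicates 2 and 3 were left out, 24 and 37 when him-8 male germline replicates 1 and 3 were, and 32 when him-8 sperm replicate 2 was.

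Genes for cytosolic ribosomal proteins made up 70 of the 218. They fell steeply from germline to sperm in him-8 (list median -1.99) and little in mes-3 (-0.27), and 70 of 73 passed the test of the difference, as many as without him-8 male germline replicate 2. With the him-8 germlines of replicates 1 and 2 alone 71 passed, with those of replicates 3 and 4 alone 71 passed, and under the length correction 56 passed. Their share of counts was 4.73%, 5.31% and 5.03% in mes-3 germlines and 3.27%, 3.53% and 3.79% in mes-3 sperm, against 6.52% to 8.64% in him-8 germlines and 1.53% to 1.82% in him-8 sperm. Thus mes-3 germlines lay below him-8 germlines and mes-3 sperm above him-8 sperm. For rpl-3 the him-8 values were 755, 766 and 849 CPM in sperm and 3456, 3284, 2854 and 3003 CPM in germlines (log2 difference 1.25 ± 0.20, edgeR adjusted p = 0.00214). Of 19 snRNA genes tested for the difference 11 passed, as did 16 of 41 snoRNA genes, all with the more positive log2 change in mes-3. The snoRNA count was 24 without him-8 male germline replicate 2 and 9 without mes-3 sperm replicate 2. The srpr genes and rpr-1 were at like levels in sperm of both genotypes, 7.32% to 8.14% in mes-3 and 6.60% to 8.60% in him-8, and differed in germlines, with 0.159% to 0.371% in mes-3 and 2.11% to 4.53% in him-8. For srpr-2.1 the difference passed the test (log2 difference 3.47 ± 0.48, edgeR adjusted p = 0.00112).

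**Figure D4:**
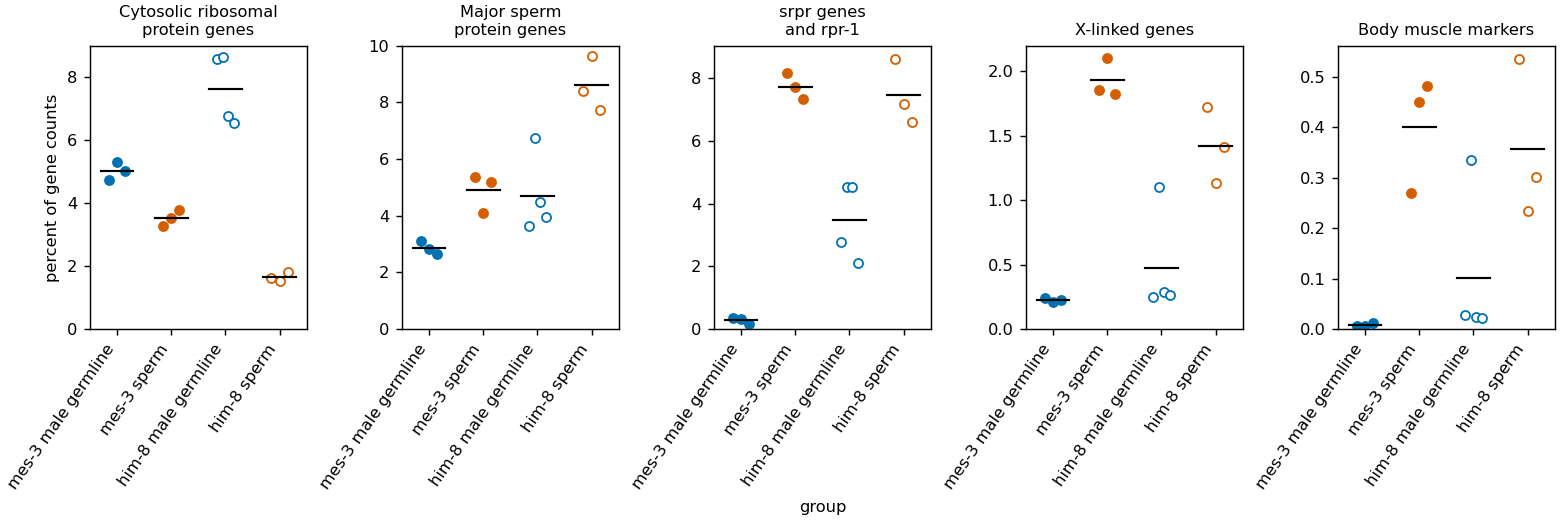
Percent of gene counts held by 5 gene groups in each library of mes-3 (filled) and him-8 (open) male germlines (blue) and sperm (orange), with group means as lines. Ribosomal protein genes fall from 5.02% to 3.53% in mes-3, and the srpr genes and rpr-1 rise from 0.284% to 7.72%. One him-8 germline library lies above the other 3 for X-linked genes (1.103%) and body muscle markers.

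Histone genes also differed in part. Of 54 core histone genes tested for the difference 9 passed. Leaving out him-8 sperm replicate 1 gave 17, and leaving out him-8 male germline replicate 1, any mes-3 male germline library, mes-3 sperm replicate 1 or 3, or him-8 sperm replicate 2 or 3 gave 3 to 5. The length correction gave 3. The linker histone gene hil-4 was at 63.6, 61.9 and 58.0 CPM in him-8 sperm and 332, 246, 210.1 and 207 CPM in him-8 germlines, against the mes-3 values given above (log2 difference 1.44 ± 0.27, edgeR adjusted p = 0.00754). The list medians of major sperm protein genes were 0.98 in mes-3 and 1.09 in him-8, and 2 of 35 genes passed as larger in mes-3. Under the length correction 1 passed as larger and 18 as smaller, so this comparison depends on the scaling. Without him-8 male germline replicate 2, 10 core histone genes passed, as did 2 msp genes as larger and 1 as smaller. The X-linked share was 1.82% to 2.1% in mes-3 sperm and 1.14% to 1.72% in him-8 sperm, and the difference between the 2 kinds of sperm was not tested.

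**Figure D5:**
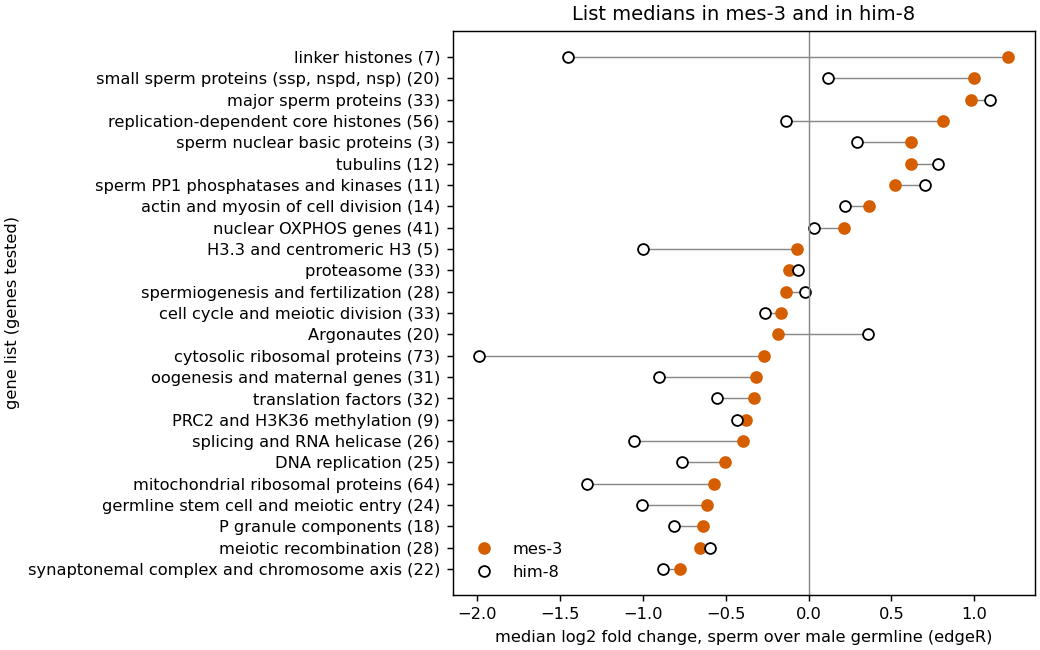
Median log2 fold change of sperm over male germline for 25 gene lists in mes-3 (filled) and in him-8 (open), joined by a line, with the number of genes tested in mes-3 and with all 4 him-8 male germline libraries included. The widest gaps among lists of more than 10 genes are those of cytosolic ribosomal proteins (-0.27 and -1.99) and core histones (0.81 and -0.14). Medians are descriptions, and the difference was tested gene by gene.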

How the data were processed

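RNA was sequenced from dissected germlines and isolated sperm after rRNA depletion (NEBNext Ultra RNA library kit, single-end reads). For the deposited count tables, the authors mapped reads with TopHat2 to the WS220 transcriptome and counted reads per gene with HTSeq. Versions, the counting of reads that map to several genes and strand handling are not given in the sources used here. The authors also deposited RPKM values pooled per group, which served here only to recover transcript lengths. Their tables of DESeq comparisons hold fold changes and p-values and were not used. Summary lines without a gene (5) were left out of totals. Of 45461 identifiers, 44933 matched 1 gene by sequence name, 3 matched more than 1 and 525 none, and those not matched to exactly 1 gene took 0.656% of the counts in the 6 libraries.

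Counts of the 3 mes-3 sperm and 3 mes-3 male germline libraries were tested with edgeR 4.0.16 in R 4.3.3 (quasi-likelihood F test, TMM factors, filterByExpr) with Benjamini-Hochberg adjustment at 0.05 over all genes tested. The genotype difference was an interaction term fitted over these and the 7 him-8 libraries. Intervals of count ratios are at the 95% level. Alternatives used DESeq2 1.42.0, other factors and filters, a lowess correction for length, a replicate block, other libraries in the fit and leave-one-out fits. Tests were tried on simulated data that gave every gene the same dispersion and changed only genes above a set mean count. The recovery there checks the fits and does not give the power for these data. In it, edgeR recovered 32% of genes changed by a log2 size of 1 and 96% of those changed by 2 in sperm against germlines (100 genes each among 10429). For the genotype difference it recovered 5% and 73% (9691 genes). RPKM per library were computed from the counts and the recovered lengths (18985 genes).

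Named genes were the 10 largest changes per direction among called protein-coding genes of at least 50 CPM in the higher group without overlap, the 10 genes of highest RPKM in sperm, the 4 most counted members of each list and, for the genotype difference, the 5 largest per direction. Further genes were picked after their values were seen: those that passed in a list, the most counted genes and those so described. The gene lists and comparisons were chosen with earlier results of these data known. Replicates 1 to 3 of sperm and germline deviated from their group means with correlations of 0.0188, -0.0341 and 0.0428 between equal numbers, so the numbers were not taken to pair samples.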

Additional observations from a re-analysis of the deposited data

Results flagged for a closer look

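The change from male germline to sperm differed between mes-3 and him-8 for 280 genes by the interaction test in edgeR. The signed log2 change was more positive in mes-3 for 218 and more negative for 62, called larger and smaller below. Differences are given as mes-3 minus him-8 on the log2 scale. Genotype cannot be told apart from sequencing run for the him-8 germlines, and replicate 2 of these germlines stood apart, so counts without it are in the report.

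By size the positive differences were led by F59C6.15 at 12.5, his-31, a histone H4 gene, at 9.41, F25H2.15 at 9.07, Y75B12B.12 at 8.65 and Y38F2AR.14 at 7.5. The values of F59C6.15 were 1.58, 3.84 and 0.804 CPM in sperm and 0.501, 0.133 and 0.200 CPM in germlines for mes-3, and 0, 0 and 0.648 CPM in sperm and 236, 768, 73.6 and 36.4 CPM in germlines for him-8. His-31 was at 0, 3.84 and 3.62 CPM in sperm and 0.876, 2.53 and 1 CPM in germlines for mes-3, and at 0, 0.508 and 0 CPM in sperm and 75.4, 81.6, 74.1 and 42.6 CPM in germlines for him-8. In both genes all 4 him-8 germline libraries were far above the mes-3 libraries and the him-8 sperm libraries, which held at most 19 counts in mes-3. Sizes at such counts are imprecise, and the difference of F25H2.15 ran from 2.29 to 14.1 over the alternatives and lost its call without mes-3 sperm replicate 2 (edgeR adjusted p = 0.967).

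The negative differences were led by F09F3.17 at -8.93, R10E8.10 at -7.93, R11E3.16 at -7.76, casy-1, a calsyntenin gene, at -5.65 and D1007.15 at -3.74. The first 3 had no count in any of the 4 him-8 germline libraries, so the fitted size depends on the prior count and is no bound. For casy-1 the levels were 33.7, 24.3 and 15.7 CPM in sperm and 59.1, 41.7 and 54 CPM in germlines in mes-3, against 86.0, 2.03 and 14.3 CPM in sperm and 0.613, 2.16, 1.79 and 1.5 CPM in germlines in him-8. Of these 10 genes, 5 kept their call in every alternative tried.

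The share of X-linked genes in him-8 male germline replicate 2 (1.103%) lay far from the other 3 libraries of its group, with a gap of 0.955 of the group's range. The limit used, Dixon’s 95% critical value, is passed by chance in about 1 of 20 groups. Body muscle markers were higher in the same library, at 3363 CPM.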

How the results depend on the processing

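Against 1900 genes higher and 1041 lower in mes-3 sperm, a threshold of 2-fold left 325 lower, total counts gave 1923 lower, and the fit over the 9 libraries of the same run gave 559 lower. The fit over all 25 libraries gave 2917 higher. Restricting to genes of at least 5 RPKM in N2 males, chosen after the data were seen, gave 1017 higher and 431 lower. Leaving out 1 library gave 1531 to 1838 higher and 427 to 1178 lower. With a replicate block 1638 genes were higher and 830 lower. For the genotype difference, against 218 and 62, the larger count was 568 in DESeq2, 639 without the count filter and 399 with him-8 germline replicates 1 and 2 alone. The smaller count was 32 at 2-fold, 267 in DESeq2, 28 with total counts, 165 without the filter, 126 with the length correction, 33 with the replicate block (202 larger) and 99 with him-8 replicates 1 and 2. Leaving out 1 library gave 135 to 281 and 13 to 155. In the shares of X-linked genes, major sperm protein genes and the 10 most counted genes, the sperm and germline libraries did not overlap. Leaving out any 1 of the 6 libraries therefore could not change the sign of these differences and is no test of them.

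Of 143 named genes, 92 were called, of which 65 kept the call in every alternative that tested them (at most 18), 27 lost it in at least 1 and none reversed. Of the 51 not called, 28 passed in at least 1 alternative. The cause of these changes was not tested. A planned share of mitochondrial genes was not run, since all 14 identifiers were at 0 in all 25 libraries. Depth limited the sperm libraries, in which 3 counts equal up to 1.92 CPM.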

Other observations

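Some other families, picked by symbol after the data were seen, moved with the sperm libraries. All 6 vitellogenin genes (vit, yolk proteins of the intestine) were higher in mes-3 sperm, as were 11 of 20 genes for the vacuolar proton pump (vha), beside 19% of all genes tested. The vit genes were of low level, with sums of 138 to 314 CPM in sperm and 27.4 to 45.1 CPM in germlines. Intestine markers summed to 1014 to 1194 CPM in the same libraries against 14.6 to 41.5 CPM in germlines, and their part in these values was not tested.

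Some genes of N-glycan assembly (algn) were lower, with 5 of 13 called and none higher, beside 10.4% lower and 19% higher over all genes. Their median was -0.99. Among the cytochrome bc1 subunit genes, ucr-2.3 was lower, with 299, 259 and 207 CPM in sperm and 445, 415 and 437 CPM in germlines (log2 fold change -0.56 ± 0.14, edgeR adjusted p = 0.0126), whereas the X-linked ucr-2.1 and ucr-2.2 were higher, with log2 fold changes of 3.32 and 2.87.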
